A study of Mus musculus with 22 samples.

Results

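The synuclein genes examined here were Sncg, which encodes gamma-synuclein, and Sncb, which encodes beta-synuclein. They were taken by name, as 2 of the 18193 genes that the array annotation pairs with a probe set of a single symbol, and each had 1 probe set. Expression had been profiled in 22 single mouse retinal cells on Affymetrix mouse expression arrays, after reverse transcription from an oligo dT primer and PCR amplification of each cell's cDNA. There were 13 ganglion cells, from 4 embryonic stages (3 cells at E12.5, a single cell at E13.5, 2 cells at E14.5 and 3 cells at E15.5) and from the day of birth (4 cells at P0). The 6 amacrine cells comprised 1 of E16.5 and 5 of P0, and the 3 photoreceptors comprised 2 of P0 and 1 adult rod. The labels give the strain CD1 for some of the cells and no strain for the others, and name no animal, genotype or treatment. Per the design text, the cell types were assigned from the profiles after the arrays had been run, with the genes used not given in the sources used here, so a difference in a gene that marks a type is not independent evidence of that type.

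The labelled types carried their markers: 6 to 10 of 11 ganglion markers were detected in each ganglion cell, 3 to 5 of 9 amacrine markers in each amacrine cell and 7 to 10 of 10 photoreceptor markers in each photoreceptor. Because the types had been assigned from these profiles, the counts describe the cells and do not check the labels. Between 1517 and 4351 genes were detected per cell. The arrays of the E16.5 amacrine cell J6 and the adult rod were brighter than the rest, with median signals of 198 and 192, against 32.8 to 79.0 on the others, and that of the P0 amacrine cell B1 was deposited on a lower scale and brought to that of the others.

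Synucleins are small, natively unfolded proteins that bind curved and acidic phospholipid membranes through imperfect repeats in their amino-terminal part. Beta-synuclein is concentrated at the presynaptic terminals of central neurons, where it meets the vesicle release machinery. Gamma-synuclein is abundant in peripheral neurons and axons and, in the retina, in ganglion cells, the output neurons whose axons form the optic nerve. Amacrine cells are inhibitory interneurons of the inner retina, and rods are the photoreceptors of dim light.

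On the mouse assembly GRCm38.p6, Sncg lies on the minus strand at chr14:34370274-34374669 and Sncb on the minus strand at chr13:54758860-54766622. The 250 bases before a RefSeq start of each gene are shown because the 2 genes were detected in different cells. They are written 5′ to 3′ on the gene's strand, and capitals mark the GC box (GGGCGG, shown here as its reverse complement) and the core of the EBF motif.
Sncg, chr14:34374670-34374919, minus strand: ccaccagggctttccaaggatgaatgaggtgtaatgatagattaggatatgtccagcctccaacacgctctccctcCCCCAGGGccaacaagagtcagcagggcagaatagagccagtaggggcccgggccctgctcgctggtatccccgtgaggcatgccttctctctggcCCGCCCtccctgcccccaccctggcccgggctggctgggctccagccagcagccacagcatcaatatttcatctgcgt
Sncb, chr13:54766596-54766845, minus strand: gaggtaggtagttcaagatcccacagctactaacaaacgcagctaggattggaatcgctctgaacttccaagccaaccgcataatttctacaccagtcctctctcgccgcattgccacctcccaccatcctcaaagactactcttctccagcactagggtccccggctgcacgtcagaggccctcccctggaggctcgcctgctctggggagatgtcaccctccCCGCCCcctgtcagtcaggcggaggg
The windows had a GC content of 61.6% for Sncg and 58.8% for Sncb, against a median of 52.4% over the 32851 RefSeq promoters of the table. Both held 1 GC box, a motif bound by Sp1 and found in 32.7% of all promoter windows. It began 78 bases before the start of Sncg and 26 bases before the end of the Sncb window. The last bases of the Sncb window, the whole GC box among them, lie within the annotated span of the gene. The start used for Sncb thus lies inside that span. CCCNNGGG, the core bound by the early B-cell factors, of which Ebf1 and Ebf3 mark ganglion cells, occurred once before Sncg, 174 bases from the start, was not found before Sncb, and was present in 11.8% of windows. The E-box CANNTG, the motif of basic helix-loop-helix factors, occurred once before Sncg, 9 bases from the start, in none before Sncb, and in 66.2% of windows. Neither window held TATAAA, found in 12.4% of windows, or GCCNNNGGC, the motif of the amacrine factors Tfap2a and Tfap2b, found in 13.7%. Both strands were searched, the motifs do not overlap in these windows, and a match to letters describes the sequence only.

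Sncg was detected in 12 of 13 ganglion cells, at every stage from E12.5 to P0. The deposited values are MAS5 signal intensities on a linear scale, and a gene with a signal of 1000 or more is called detected. In the E12.5 ganglion cells Sncg had signals of 41475 in cell E4, 41093 in F3 and 35925 in F6. The E13.5 ganglion cell A3 had 25457, the E14.5 cells D8 and E1 had 26663 and 14204, and the E15.5 cells B1, B5 and C7 had 37905, 37834 and 18272. All 9 ganglion cells taken before birth were thus far above the detection level. At P0 the ganglion cells C6, F1 and A3 had 26519, 19892 and 12905, and cell A6 stood apart with 415. Without A6, the lowest ganglion cell still had 12905, and Sncg exceeded at least 97.3% of the probe sets on each of those 12 arrays, against 87.1% in A6.

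Outside the ganglion cells Sncg was detected in 2 of 9 cells. The P0 amacrine cell D1 had a signal of 11947, close below the lowest of the Sncg-positive ganglion cells. The other P0 amacrine cells had 332 in G3, 190 in F6, 156 in B1 and 22.04 in A4, and the E16.5 amacrine cell J6 had 44.4. The P0 photoreceptor E1 had 5974, while the P0 photoreceptor H1 had 202 and the adult rod 532. The ranges of the ganglion cells (415 to 41475) and the amacrine cells (22.04 to 11947) overlapped through A6 and D1.

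Sncb was low throughout and passed the detection level in no ganglion cell. In ganglion cells its signal was lowest in the E15.5 cell C7 (48.0), had a median of 222 and was highest in the P0 cell F1 (804). At E12.5 it was 346 in E4, 211 in F3 and 139 in F6, at E13.5 it was 391 in A3, and at E14.5 it was 254 in D8 and 127 in E1. At E15.5 it was 140 in B1 and 222 in B5, and at P0 the cells A6, C6 and A3 had 481, 316 and 166. Most of these values lie near 200, the level to which lower signals were raised before logarithms were taken, and 5 of the 13 ganglion cells were at that floor.

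In amacrine cells Sncb had signals of 896 in the E16.5 cell J6 and, at P0, 1663 in F6, 397 in G3, 353 in A4, 332 in D1 and 268 in B1. In photoreceptors it was 382 in the P0 cell E1, 296 in the P0 cell H1 and 1347 in the adult rod. F6 and the adult rod were the only 2 of the 22 cells past the detection level, and the amacrine and ganglion ranges overlapped. The 4 cells with the highest Sncb (F6, the rod, J6 and ganglion cell F1) were also cells with many genes above the floor, with 31.8%, 55.0%, 57.9% and 37.2% of genes above 200, against 20.6% to 34.7% in the other 18 cells. The part of these array differences in the Sncb values was not tested. By its place among the probe sets of its own array, Sncb stood above 88.3% of them in F6, within the 85.7% to 90.0% of the P0 amacrine cells, and above 93.8% in the rod, the highest of the 22 arrays.

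**Figure D1:**
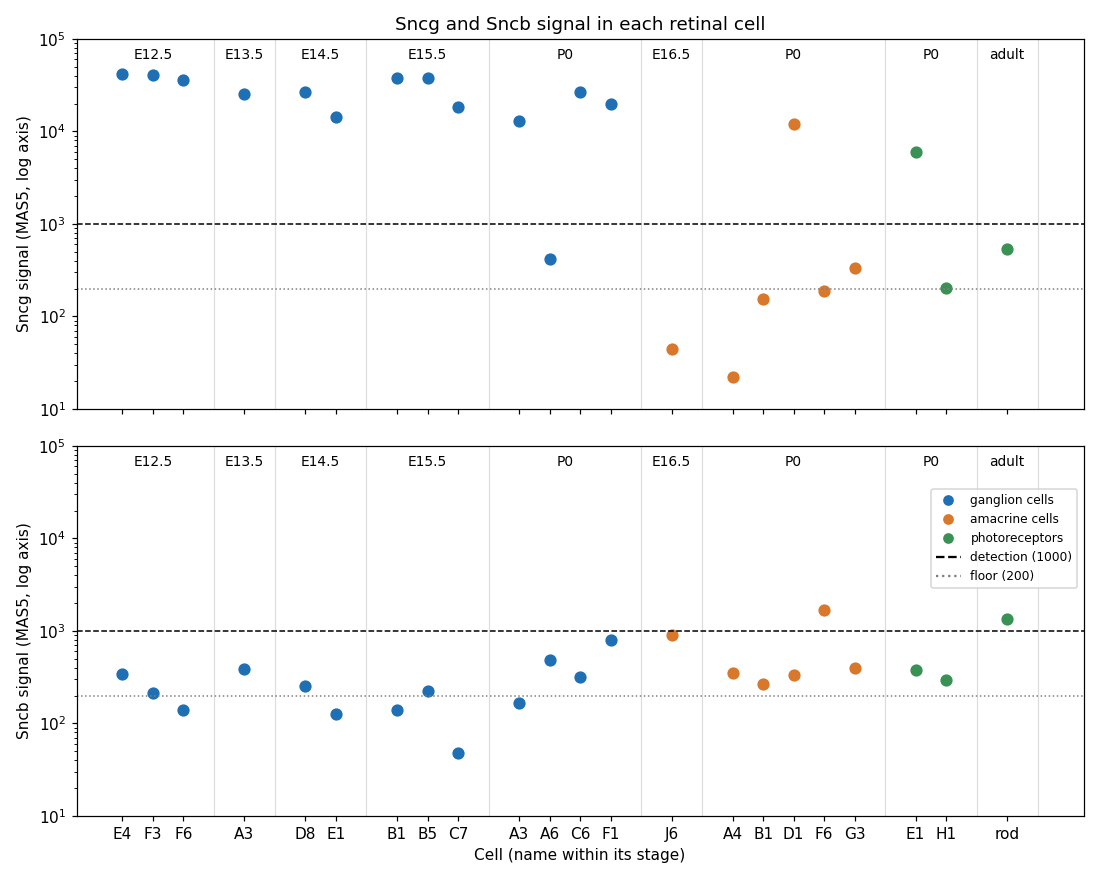
Sncg (upper panel) and Sncb (lower panel) signal on a log axis, 1 point per cell, for ganglion cells by stage, then amacrine cells and photoreceptors. The dashed line is the detection level of 1000 and the dotted line the floor of 200. Sncg lies above the detection level in 12 of 13 ganglion cells, and Sncb exceeds 1000 only in P0 amacrine cell F6 and the adult rod.

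No cell had both synucleins at the detection level. Sncb was detected in only 2 cells, so at most 2 cells could have held both. The same level was applied to 2 probe sets whose signals cannot be compared with each other. Sncg alone was detected in 14 of the 22 cells (12 of 13 ganglion, 1 of 6 amacrine and 1 of 3 photoreceptors), Sncb alone in 2 (0 of 13 ganglion, 1 of 6 amacrine and 1 of 3 photoreceptors) and neither in 6 (1 ganglion, 4 amacrine and 1 photoreceptor). With detection set at a signal of 500, the counts were 13 for Sncg alone, 2 for Sncb alone, 2 for both (ganglion cell F1 and the adult rod) and 5 for neither. At 2000 they were 14, 0, 0 and 8. Across all 22 cells the log2 signals of the 2 genes had a Pearson correlation of -0.55 and a Spearman correlation of -0.51, which describes cells of 3 types that differ in array brightness. Within the 13 ganglion cells the Pearson correlation was -0.37 and the Spearman correlation -0.02. The plot of the 2 genes against each other shows A6 among the cells with neither gene detected.

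**Figure D2:**
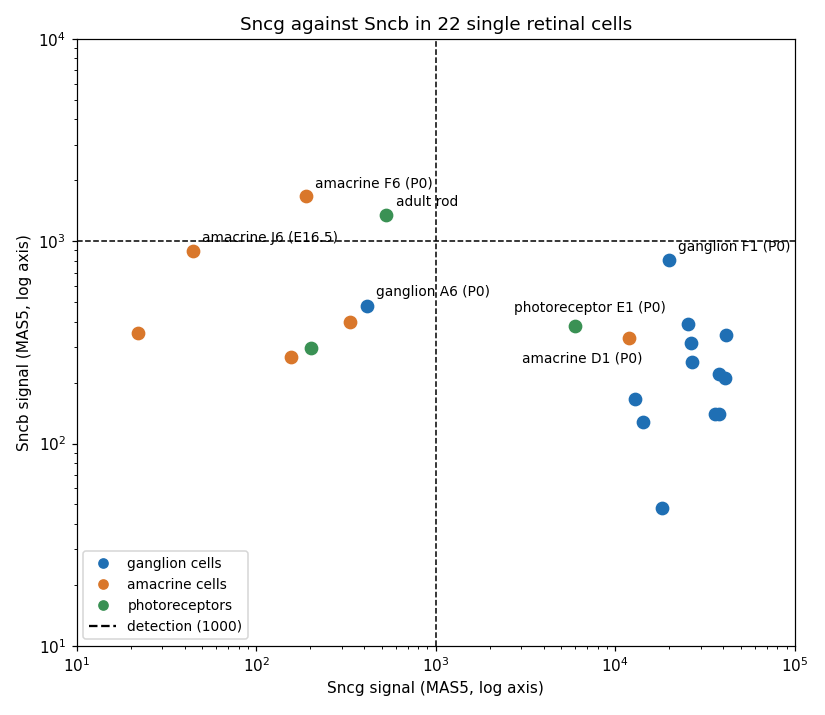
Sncg signal (x axis) against Sncb signal (y axis), both on log axes, 1 point per cell, with dashed lines at the detection level of 1000. The upper right corner, where both genes would be detected, is empty; 14 cells lie at the lower right, 2 at the upper left and 6 at the lower left.

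For the comparison of types, log2 signals of the cells of 1 type and stage were averaged into 9 samples, because no animal is named and cells of a stage may share one. Sncg was higher in ganglion cells than in amacrine cells and than in photoreceptors. The 5 ganglion samples averaged 14.37 ± 0.93 on the log2 scale (SD, n = 5), the 2 amacrine samples 8.31 ± 0.94 (SD, n = 2) and the 2 photoreceptor samples 9.58 ± 0.74 (SD, n = 2). The ganglion samples lay between 12.83 and 15.27, the amacrine samples between 7.64 and 8.97 and the photoreceptor samples between 9.06 and 10.10. Single cells of the types overlapped, with ganglion cell A6 at 8.70, amacrine cell D1 at 13.54 and photoreceptor E1 at 12.54. In limma with Benjamini-Hochberg adjustment over the 7183 genes tested, the ganglion minus amacrine difference was 6.06 ± 1.44 (SE, adjusted p = 0.0370), the third lowest p among genes higher in ganglion cells. The ganglion minus photoreceptor difference was 4.79 ± 1.44 (SE, limma adjusted p = 0.0352). Sncg marks ganglion cells, the types had been assigned from these profiles, and Sncg was chosen with earlier results known. These p-values and the rank therefore describe these samples and are not independent evidence of a difference. Of the genes tested, 0.0418% (3 genes) passed as higher and 0.0278% (2 genes) as lower in ganglion than in amacrine cells, with 283 genes at an unadjusted p under 0.05. In ganglion cells against photoreceptors 1.07% (77 genes) passed as higher and 1.91% (137 genes) as lower. The medians over all genes tested were -0.06 against amacrine cells and 0.51 against photoreceptors. The amacrine samples lay close to the floor of 200, and the difference against them changed with it, to 6.70 with a floor of 100 and 4.96 with a floor of 500. Against photoreceptors it was 4.79 with a floor of 100 and 4.48 with a floor of 500.

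Between amacrine cells and photoreceptors the difference in Sncg did not pass the test: amacrine minus photoreceptor was -1.27 ± 1.72 (SE, limma adjusted p = 0.849), where 0.125% of genes passed as higher and 0.445% as lower in amacrine cells. Sncb was detected in 2 cells, fewer than the 3 that the filter on dim genes asks for, and so was not tested among the 7183 genes. Its means were 8.14 ± 0.45 (SD, n = 5) in ganglion, 9.33 ± 0.68 (SD, n = 2) in amacrine and 9.39 ± 1.42 (SD, n = 2) in photoreceptor samples. The ganglion minus amacrine difference was -1.19 and the ganglion minus photoreceptor difference -1.26, and without the filter on dim genes neither passed in limma (adjusted p = 0.806 and adjusted p = 0.371).

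The calls of Sncg depended on single cells, while its differences kept their sign. Against amacrine cells the difference stayed between 5.40 and 6.63, and the limma adjusted p stayed under 0.05 in 10 of the 22 fits. It was between 0.0515 and 0.104 without E12.5 ganglion cell F3, E13.5 A3, E14.5 D8, E15.5 B1, E15.5 B5, P0 ganglion cells C6 and F1, P0 amacrine cells F6 and B1, or either P0 photoreceptor. Without the E16.5 amacrine cell J6, the only cell of its sample, the difference was 5.40 and the limma adjusted p rounded to 1.00. Without D1 the difference was 6.63 (limma adjusted p = 0.0135). Against photoreceptors the difference stayed between 3.57 and 6.01 and the limma adjusted p was under 0.05 in 15 of 22 fits. The lowest difference, 3.57 (limma adjusted p = 0.187), was without the P0 photoreceptor H1, and without the Sncg-positive photoreceptor E1 it was 6.01 (limma adjusted p = 0.00765). The limma adjusted p was 0.130 without the adult rod (difference 4.27) and between 0.0525 and 0.0682 without E13.5 ganglion cell A3, E15.5 B1 or B5, P0 ganglion cell F1 or amacrine cell J6. Fits without J6 keep 1 amacrine sample, and fits without the rod keep 1 photoreceptor sample. Without both of these bright arrays the differences were 5.40 against amacrine cells and 4.27 against photoreceptors.

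**Figure D3:**
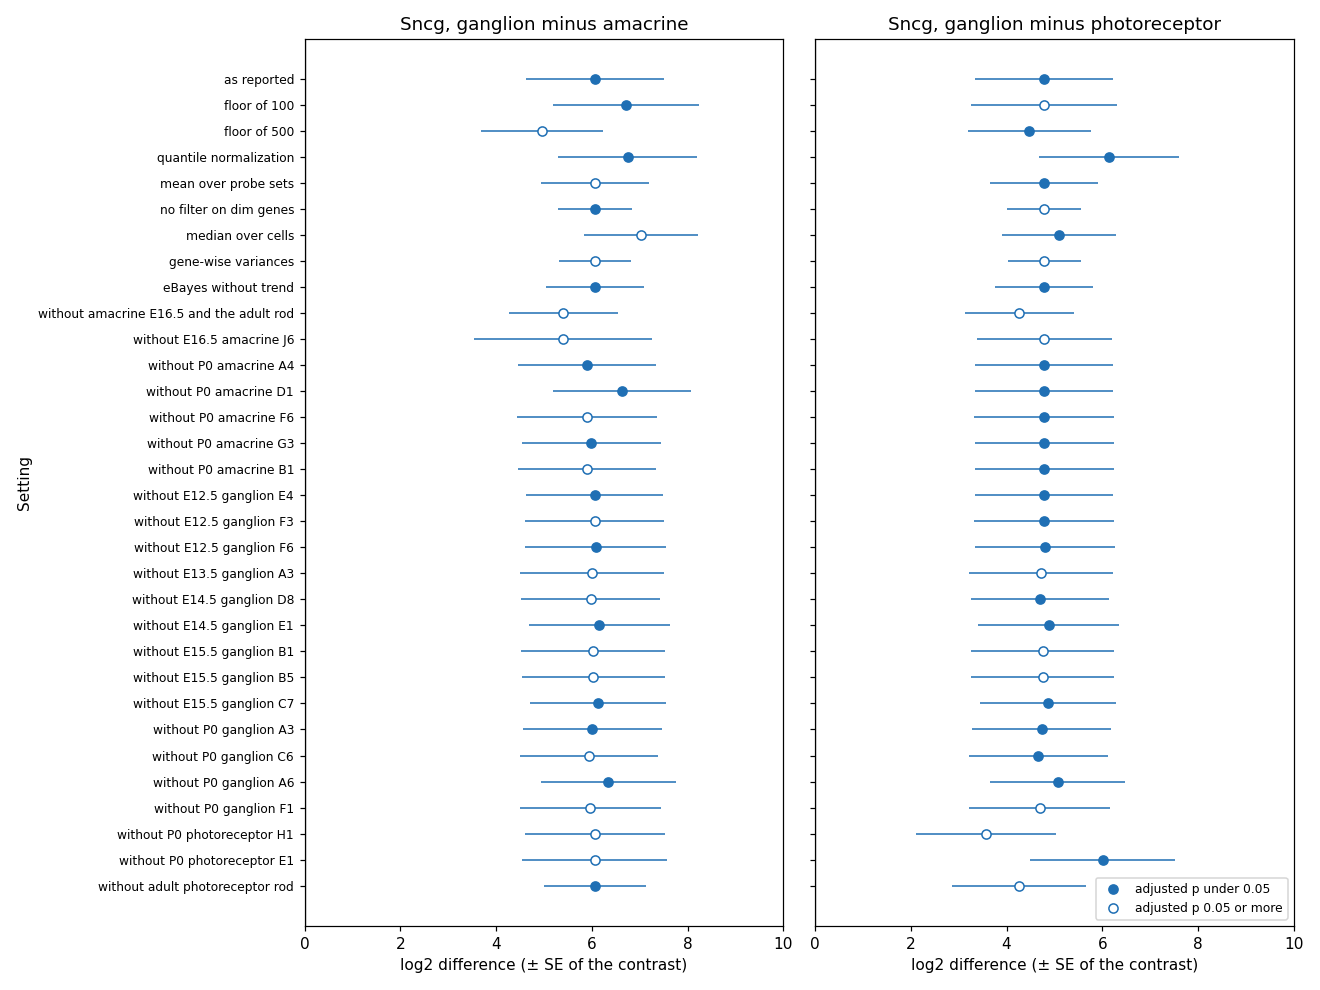
Log2 difference of Sncg between ganglion and amacrine samples (left) and between ganglion and photoreceptor samples (right), with the SE of the contrast, as reported (top), under each alternative processing and with each cell left out. Filled points have a limma adjusted p under 0.05 and open points do not; every difference is positive, from 4.96 to 7.03 on the left and from 3.57 to 6.14 on the right.

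P0 is the stage at which all 3 types were sampled, with 1 sample each and therefore no test. Sncg averaged 12.83 ± 2.79 in P0 ganglion cells (SD over 4 cells), 8.97 ± 2.58 in P0 amacrine cells (SD over 5 cells) and 10.10 in the 2 P0 photoreceptors (7.66 and 12.54). The ganglion minus amacrine difference at P0 was 3.86, and 1.10% of the genes tested had a larger one. It was 5.24 without ganglion cell A6 and 5.01 without amacrine cell D1. The ganglion minus photoreceptor difference at P0 was 2.73, and 11.2% of the genes tested had a larger one. For Sncb these differences were -0.22 and 0.23, beside medians over all genes tested of 0.23 and 0.49.

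Among ganglion cells the mean log2 Sncg signal was 15.27 at E12.5, 14.64 at E13.5, 14.25 at E14.5, 14.86 at E15.5 and 12.83 at P0. The 3 E12.5 cells lay close together (SD 0.12), and the ranges of E12.5 and E15.5, the stages with the highest means, overlapped. The mean at P0 was 2.43 below that at E12.5 (log2 difference -2.43), and 5.90% of genes had a lower difference. Without A6 it was -1.06. The 4 P0 cells were all below the 3 E12.5 cells, as in 250 of the genes tested, or 3.48%. Order by mean level placed P0 photoreceptors (10.10), the adult rod (9.06), P0 amacrine cells (8.97) and the E16.5 amacrine cell (7.64, the floor) after the ganglion stages, and each pair of neighbours in this order overlapped or met at the floor. For Sncb the order was the adult rod (10.40), the E16.5 amacrine cell (9.81), P0 amacrine (8.85), P0 ganglion (8.63), E13.5 ganglion (8.61), P0 photoreceptors (8.39) and the E12.5 (7.93), E14.5 (7.82) and E15.5 (7.69) ganglion cells. Neighbouring groups of more than 1 cell overlapped throughout this order, and Sncb at P0 was 0.69 above E12.5 in ganglion cells, with overlapping cells.

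D1, the amacrine cell with Sncg, carried amacrine markers and few ganglion markers. It had Tfap2b at 13.95 on the log2 scale and Tfap2a at 12.79, both transcription factors of amacrine cells. Gad1, which makes the transmitter GABA, was at 13.30. With these, 3 of 9 amacrine markers were detected in D1, against 4 or 5 in each other amacrine cell. The amacrine list averaged 9.65 in D1, the lowest of the 6 amacrine cells, against 10.02 to 11.08 in the others. Of 11 ganglion markers 1 was detected, the neurofilament gene Nefm at 11.95, and the list averaged 8.15, against 10.58 to 12.89 in the ganglion cells and 7.64 to 8.82 over the amacrine cells. The ganglion markers Rbpms, Nefl, Gap43, Slc17a6 and Pou4f1 were at the floor of 7.64, and Ebf3 was at 8.94, below detection. Sncg in D1 therefore stood beside undetected levels of most genes that define ganglion cells.

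D1 also differed from the other amacrine cells in genes of other lists. The intermediate filament gene Vim was at 14.39, against 7.64 to 8.32 in the other 5 amacrine cells, and the glutamate transporter gene Slc1a3, a marker of Müller glia, was at 12.52, against 7.64 in all 5. The progenitor and cell cycle genes Fgf15 (13.55), Top2a (13.49) and Ccnd1 (14.60) were above the highest of the other amacrine cells, which reached 8.91, 8.03 and 13.28. In all, 3 of 7 glial and 3 of 8 progenitor markers were detected in D1. The other 5 amacrine cells had 0 or 1 glial and 1 to 3 progenitor markers. In D1, Rlbp1, Gfap, Sox2, Hes1 and Hes5 were at the floor. The part of these transcripts in the Sncg signal of D1 was not tested. D1 had 2029 genes detected, and its median Spearman correlation with other cells was 0.207 to ganglion and 0.238 to amacrine cells.

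A6, the ganglion cell in which Sncg was not detected, carried ganglion markers. Ebf3 was at 15.44 and the RNA-binding protein gene Rbpms at 14.99, the highest values among the 13 ganglion cells. Nrn1 was at 14.95, Nefl at 13.78, Gap43 at 13.68 and the vesicular glutamate transporter gene Slc17a6 at 11.72, so that 6 of 11 markers were detected, the lower end of the 6 to 10 in ganglion cells. Nefm was at the floor. Of the amacrine markers only Slc32a1, the vesicular GABA transporter gene, was detected, at 10.15, and Tfap2a, Tfap2b, Gad1 and Gad2 were at the floor. A6 had 2292 genes detected and a median signal of 79.0, the highest of the 13 ganglion cells. Its median Spearman correlation was 0.211 to other ganglion cells, the lowest of the 13, and 0.214 to amacrine cells. In all, 40 genes were detected in every ganglion cell except A6. They included Sncg and the ribosomal protein genes Rpl13a, Rpl7 and Rps15. The same count for single other ganglion cells ran from 1 in P0 cell F1 to 69 in E15.5 cell C7. The part of these array differences in the low Sncg signal of A6 was not tested.

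**Figure D4:**
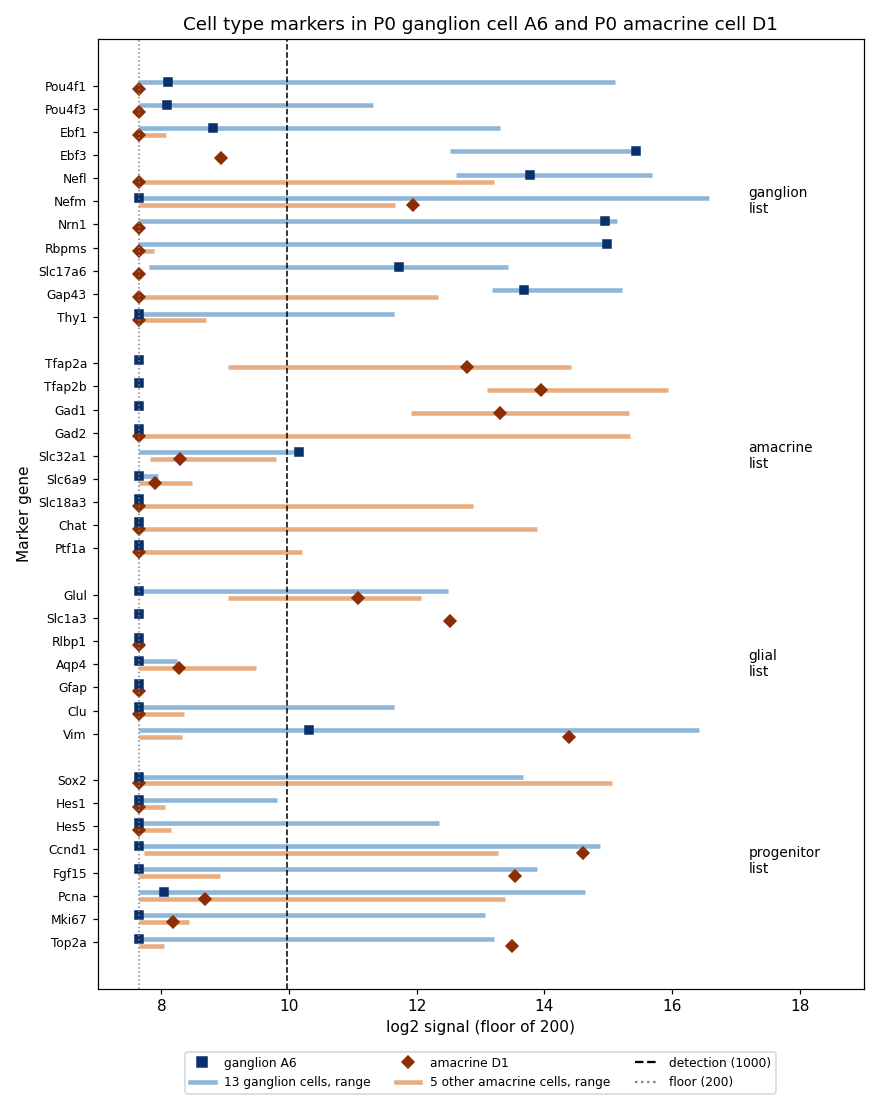
Log2 signal of ganglion, amacrine, glial and progenitor markers. Squares are ganglion cell A6 and blue bars the range of all 13 ganglion cells; diamonds are amacrine cell D1 and orange bars the range of the 5 other amacrine cells (a group wholly at the floor has no visible bar). A6 shares Ebf3 and Rbpms with ganglion cells, and D1 shares Tfap2a, Tfap2b and Gad1 with amacrine cells while Slc1a3, Vim, Fgf15 and Top2a lie above its group.

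The P0 photoreceptor E1, the other cell with Sncg outside the ganglion cells, had 7 of 10 photoreceptor markers, among them the transcription factors Crx at 15.23 and Nrl at 14.71. It had 0 of 11 ganglion markers, 0 of 7 glial and 0 of 8 progenitor markers, and Gad1 was detected at 13.92. The other P0 photoreceptor, H1, in which Sncg was just above the floor, had 8 of 10 photoreceptor, 4 of 7 glial and 3 of 8 progenitor markers. Transcripts of lens and blood were detected in some ganglion cells, with the crystallin gene Cryaa in 3 cells and the embryonic globin genes Hbb-y and Hba-x in 5 cells each. Neither D1 nor E1 had a lens or blood marker above detection.

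Genes detected in at least 12 of the 13 ganglion cells numbered 398. Of these, Sncg and Vim were the 2 detected in D1 and in no other amacrine cell, a count that was also 2 in F6, 1 in J6 and 0 in the other 3 amacrine cells. Ebf3, Rbpms and S100a10 were the 3 of the 398 detected in no amacrine cell. Sncg was the 1 gene that was both undetected in A6 alone among ganglion cells and detected in D1 alone among amacrine cells. These patterns were chosen after the values had been seen.

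The 8 genes most like Sncg by Pearson correlation of log2 signal over the 22 cells, among the other 7182 genes tested, were Nefm (0.83), Ddah2 (0.81), Elavl4 (0.80), Ebf3 (0.80), Nfasc (0.78), S100a10 (0.77), Hspa12a (0.77) and Vim (0.75). Nefm encodes the medium neurofilament, Elavl4 a neuronal RNA-binding protein and Nfasc an adhesion protein of axons. Ebf3 and S100a10 also passed the ganglion minus amacrine test, with differences of 6.52 ± 1.47 (SE, limma adjusted p = 0.0335) and 6.21 ± 1.47 (SE, limma adjusted p = 0.0370), and with Sncg they were the 3 genes that passed as higher. Each of the 8 was detected in 10 to 13 ganglion cells and in 0 to 3 amacrine cells. In D1, Vim (14.39), Hspa12a (14.04), Nefm (11.95) and Ddah2 (10.68) were detected and the other 4 were not. These correlations share the contrast between types, since 13 of the 22 cells are ganglion cells.

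Over the 13 ganglion cells alone, the closest genes to Sncg were Usp22 (0.91), a deubiquitinase gene, Akr1a1 (0.91), Wdr82 (0.89), Jpt1 (0.88) and Sox4 (0.88), a transcription factor of young neurons. In A6, Usp22 was at 7.64, Wdr82 at 8.51 and Sox4 at 7.70, all undetected, and Akr1a1 at 10.75 and Jpt1 at 10.86. Over the 12 ganglion cells without A6 the correlations were 0.16 for Usp22, 0.35 for Akr1a1, 0.24 for Wdr82, 0.11 for Jpt1 and -0.18 for Sox4, so that the high values rest on this 1 cell. These 5 genes were detected in 12 or 13 ganglion cells and in 4 to 6 amacrine cells, and their ganglion minus amacrine differences ran from -0.86 to 1.43, none passing. None of these 5 was among the 8 closest over all cells.

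The 8 genes most like Sncb over the 22 cells were Ntrk2 (0.86), the gene of the BDNF receptor, Zswim9 (0.80), Gng7 (0.80), Ramp3 (0.79), Birc7 (0.74), Endov (0.73), Uvrag (0.72) and Hif1an (0.71). Each was detected in 0 or 1 ganglion cells, 1 or 2 amacrine cells and 1 photoreceptor, so that few cells carry these correlations. Over the ganglion cells the closest were Ptpn4 (0.77), Rasa4 (0.75), Zmym3 (0.74), Prkab2 (0.73) and the sodium leak channel gene Nalcn (0.73), each detected in 3 to 5 of them.

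Genes listed as partners of the synuclein family were also examined, and the lists do not say with which synuclein each product works. Of 14 genes of the vesicle release machinery 12 were measured and 10 tested, and none passed between ganglion and amacrine cells. Their median difference was 0.52, with 7 positive and 3 negative, beside -0.06 over all genes. The 4 largest, Rab3a (2.48), a vesicle GTPase, Cplx2 (1.55), Sv2a (1.16) and Stx1a (0.76), each had a limma adjusted p of 0.999. Against photoreceptors 1 of the 10 was lower in ganglion cells, the vesicle protein gene Syp, at 8.59 in ganglion and 13.51 in photoreceptor samples (difference -4.91 ± 1.38, SE, limma adjusted p = 0.0194), and the median was 0.25 beside 0.51, where 1.91% of all genes tested were lower.

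Of 7 listed genes for kinases of synucleins and their subunits 6 were measured and 5 tested. None passed between ganglion and amacrine cells, with a median of 0.07 and differences of 1.17 for Plk3, 0.26 for Grk5, -0.22 for Fyn and -0.08 for Csnk2a2. Against photoreceptors Csnk2a2, a casein kinase 2 catalytic subunit, was lower in ganglion cells (-4.53 ± 1.39, SE, limma adjusted p = 0.0409), 1 of the 5 tested, beside the same 1.91% of all genes. Neither of the 2 phospholipase D genes was detected in enough cells to be tested. All 8 chaperone and ubiquitin ligase genes were tested and none passed in either contrast, with medians of 0.00 against amacrine cells and -0.98 against photoreceptors. The largest ganglion minus amacrine differences among them were Siah2 (-2.41), a ubiquitin ligase, St13 (2.10), Dnajb1 (0.65) and Siah1a (-0.36).

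The 14-3-3 proteins are adaptor proteins that share sequence similarity with synucleins, and all 6 genes tested were detected in at least 10 of the 13 ganglion cells. None passed between ganglion and amacrine cells (median 0.23), where Ywhag differed by 1.75, Ywhaz by 0.57, Ywhab by 0.24 and Ywhaq by 0.22. Against photoreceptors 2 of the 6 were higher in ganglion cells, Ywhab (4.67 ± 1.36, SE, limma adjusted p = 0.0282) and Ywhaz (4.15 ± 1.19, SE, limma adjusted p = 0.0232), with a list median of 2.55 beside 0.51, where 1.07% of all genes tested were higher. Leaving out the 2 bright arrays, J6 and the adult rod, left 1 amacrine and 1 photoreceptor sample, the cells of P0. The differences against photoreceptors were then -4.07 for Syp, -0.63 for Csnk2a2, 3.18 for Ywhab and 0.91 for Ywhaz. That of Ywhag was 6.87, against 1.89 with all cells. The parts of array brightness and of the lost samples in these shifts were not tested.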

How the data were processed

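Each of the 22 cells was profiled on 1 array. The authors deposited MAS5 signal intensity per probe set, per the submitters' processing notes, on a linear scale and with no detection calls. On 21 of the 22 arrays the 2% trimmed mean was 500, and the array of P0 amacrine cell B1 (18.1) was multiplied by 27.6 to that target. Of 45101 probe sets, 34958 had 1 gene symbol in the platform annotation, 932 several and 9211 none, and 34754 of those with 1 symbol were matched by gene number to RefSeq (GRCm38.p6), which also gave positions and promoters. Values under 200 were set to 200 (log2 7.64) before taking log2, and the probe set with the highest mean stood for each of 18193 genes.

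The 7183 genes at 1000 or more (log2 9.97) in at least 3 cells were tested on 9 type-and-stage samples in R 4.3.3 with limma 3.58.1, using 1 mean per type, a trended eBayes prior and 6 residual degrees of freedom, with Benjamini-Hochberg adjustment at 0.05. A test of Sncb had been planned, but it failed this filter. The eBayes prior had infinite degrees of freedom, so each SE came from the trend over genes of similar level, not from the gene's own spread. For Sncg the ganglion minus amacrine SE was 1.44, against 0.758 with gene-wise variances. Nothing says that cells came from separate animals, so p-values measure that shared spread between these samples. Type and stage are partly confounded. The number of arrays limits the precision. The highest Pearson correlation between 2 arrays was 0.70, so no 2 arrays held the same values.

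The members, partner lists and marker lists were chosen with earlier results of these data known. Genes were named by rule: both synucleins; the 8 genes closest to each over all cells and the 5 closest over ganglion cells; up to 4 members of each partner list with the largest ganglion minus amacrine difference; and the detected ganglion and amacrine markers of D1. Genes that passed in a list, the genes of the A6 and D1 patterns and the other markers were named after their values were seen. The fit was also run on values shuffled over cells within each gene, with shifts added in ganglion cells. That setting lacks the stage structure of these samples, and its outcome is not given here. Alternatives were other floors, quantile normalization, probe set means, no filter, medians, other variance models and leaving out each cell, and, chosen after seeing the data, leaving out the 2 bright arrays and, for the closest genes, other settings and leaving out A6.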

Additional observations from a re-analysis of the deposited data

Results flagged for a closer look

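Among groups of 4 to 10 cells, a highest or lowest cell was singled out where its gap to the nearest cell, divided by the group's range, exceeded Dixon's critical value. Chance singles out about 1 in 20 groups of values that are not tied, and 4 were examined (2 genes in P0 ganglion and P0 amacrine cells). P0 amacrine cell D1 was singled out for Sncg, at a log2 signal of 13.54 with a ratio of 0.876 over 5 cells. D1 had been named in the choice of genes and cells, and 3 of these 5 values were at the floor, so that the chance rate does not apply and the ratio is a description. P0 amacrine cell F6 was singled out for Sncb, at 10.70 with a ratio of 0.784 over 5 cells. P0 ganglion cell A6, at 8.70 for Sncg, had a ratio of 0.827 over 4 cells, just short of the critical value for that number.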

How the results depend on the processing

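The difference of Sncg kept its sign in both ganglion contrasts under every alternative tried, but its calls did not. Against amacrine cells the difference was 4.96 (limma adjusted p = 0.160) with a floor of 500 and 6.06 (limma adjusted p = 0.0630) with the mean over probe sets. It was 7.03 (limma adjusted p = 0.0838) with medians over cells and 6.06 (adjusted p = 0.0974) with gene-wise variances. Against photoreceptors it was 4.79 with a floor of 100 (limma adjusted p = 0.0517), without the filter (0.0703) and with gene-wise variances (0.0674). Without the 2 bright cells, the E16.5 amacrine cell and the adult rod, 1 amacrine and 1 photoreceptor sample remained. The differences were then 5.40 against amacrine cells and 4.27 against photoreceptors. Calls from that fit are left out, because 1 sample remained in each of these types. At P0 the ganglion minus amacrine difference was 6.32 with medians. For Sncb after quantile normalization, the ganglion minus photoreceptor difference was -2.11 and the amacrine minus photoreceptor difference -1.35, and without the 2 bright cells the first was -0.26. The genes passing between ganglion and amacrine cells numbered 1 with a floor of 500 and with probe set means. They numbered 10 after quantile normalization, 31 without the filter, 0 with medians and 8 with gene-wise variances. Between ganglion cells and photoreceptors they numbered 68 with probe set means, 57 without the filter, 65 with medians, 59 with gene-wise variances and 54 without the 2 bright cells. Between amacrine cells and photoreceptors they numbered 62 with a floor of 500, 20 with probe set means, 16 with gene-wise variances and 0 with medians. Cells with Sncb numbered 4 at a detection level of 500, with 2 holding both genes, and 0 at 2000. The cause of these shifts was not tested. Sncb lay near the floor on most arrays, which limits any statement on its differences between types.

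With each cell left out in turn, Sncg ran from 5.40 to 6.63 (ganglion minus amacrine), 3.57 to 6.01 (ganglion minus photoreceptor) and -2.49 to -0.05 (amacrine minus photoreceptor), and at P0 from 3.24 to 5.24 against amacrine cells and from -3.06 to -1.06 against E12.5. Sncb ran from -1.31 to -0.71, from -1.38 to -0.26 and from -0.55 to 0.93 in the same 3 contrasts, and at P0 from -0.56 to 0.24 and from 0.35 to 1.02. The genes passing ran from 1 to 9, 87 to 220 and 2 to 47. No paired analysis was possible because replicate numbers were given in accession order and pair no cells.

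None of the partner genes named passed between ganglion and amacrine cells, and some of these differences changed sign. Grk5 was at -0.13 with a floor of 100, Ywhab at -0.15 with probe set means and Sv2a at -0.087 without the 2 bright cells. Fyn was at 2.03 with a floor of 500, 0.080 after quantile normalization, 1.28 with probe set means and 1.55 without the 2 bright cells. Csnk2a2 was at 0.15 with a floor of 500, 0.76 after quantile normalization and 0.12 without the 2 bright cells. Of the genes closest to Sncg, Jpt1 changed sign (0.015, medians). Ebf3 and S100a10 lost their ganglion minus amacrine call with a floor of 500, probe set means and medians. They lost it in 6 and 12 of the 22 fits with a cell left out, respectively. Vim (6.38, limma adjusted p = 0.0183) gained this call after quantile normalization. The calls of Syp, Csnk2a2, Ywhaz and Ywhab against photoreceptors were lost without the filter, with medians and with gene-wise variances, as were those of Syp, Ywhaz and Ywhab with probe set means, where Csnk2a2 was not tested. Csnk2a2 also lost its call with a floor of 100, after quantile normalization and without the trend, Ywhaz with a floor of 500 and without the trend, and Ywhab with a floor of 500. Without the 2 bright cells 1 photoreceptor sample remained, and the differences of these genes are given above. Csnk2a2 lost its call in 11 of the 22 fits with a cell left out, Ywhab in 6, Ywhaz in 4 and Syp in 2. Of the 8 genes closest to Sncg, 5 were shared under probe set means and 6 after quantile normalization.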
